A study of Mus musculus with 11 samples.

Results

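The 43 genes described here encode the machinery that removes mRNA from the cell, and they were chosen by symbol: every one of 43 listed deadenylation, decapping, exosome and nonsense-mediated decay factors was found among the 23284 genes of each file. They fall into 7 groups by complex, with 9 subunits of CCR4-NOT, 3 other factors of deadenylation and poly(A) binding, 5 decapping factors, 2 5′ to 3′ exonucleases, the 7 Lsm proteins Lsm1 to Lsm7, 10 exosome subunits and 7 factors of nonsense-mediated decay. The measurement is RNA abundance of these genes, not the activity of the complexes or the half-life of their targets.

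Decay of most mRNAs begins with shortening of the poly(A) tail, which Pan2-Pan3 starts and the CCR4-NOT complex completes. The deadenylated mRNA is then either decapped by Dcp2, with the Lsm1-7 ring and Edc proteins as activators, and digested from its 5′ end by Xrn1, or digested from its 3′ end by the exosome, a ring of inactive subunits that channels RNA to the nucleases Dis3 and Exosc10. Nonsense-mediated decay joins these routes to translation: Upf1 recognises terminations far from the 3′ end, the kinase Smg1 phosphorylates it, and Smg6 cuts the transcript. The same enzymes serve ordinary turnover and quality control, so their subunits are expressed in most cell types.

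The data came from mouse embryonic stem cells (ESCs) grown with LIF and serum on gelatin. Ribodepleted total RNA of WT cells and of a Tet1, Tet2 and Tet3 triple knockout (TKO) line was sequenced without treatment (0 h) or once the cells had spent 4 h with α-amanitin at 10 µg/ml, a toxin that blocks RNA polymerase II, with 2 libraries in each of the 4 groups. The remaining group held 3 libraries of polyadenylated (polyA) RNA from untreated WT ESCs. The Tet enzymes oxidise 5-methylcytosine, and the TKO line had been made earlier, so TKO differences carry whatever else separates that line from the WT cells. The drug was given so that falling levels would report on mRNA stability.

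Levels are given as scaled TPM, the share of a library per transcript length (TPM) divided by a size factor of each library, so they can be compared between genes. Changes are differences of log2(scaled TPM + 1) with their standard error from limma, and a gene passed at an adjusted p under 0.05 over all genes tested (12467 in the ribodepleted libraries). Recovered depth was 25507874 to 29781366 reads per ribodepleted library and 72639837 to 82129168 per polyA library, and the least covered member, Dcp1b, had 102 to 395 reads. In TKO cells Tet1 and Tet2 were 4.16-fold and 6.51-fold lower than in WT at 0 h, whereas Tet3 was at 1.57 TPM in TKO and 1.47 in WT and so does not check the label. The 6 ESC markers were above 1 TPM in every library, but in ribodepleted libraries their sum went with genotype, at 2789 to 2878 TPM in WT and 2290 to 2294 in TKO at 0 h. It also went with the kind of library, at 4640 to 4804 TPM in WT polyA. Zfp42 was at 495 TPM in ribodepleted WT at 0 h, 124 in TKO and 169 in WT polyA, and Esrrb at 182, 116 and 244. Pou5f1 and Sox2 also had lower means in TKO than in ribodepleted WT, and Nanog and Tdgf1 had higher ones. Markers of fibroblast feeders summed to at most 10.5 TPM in WT and from 13.0 to 14.9 in TKO libraries, with 3 or 4 of the 7 under 1 TPM in every library and Lum at or near 0, and those of primitive endoderm to at most 7.63 TPM. Their part in the differences was not tested. In bulk RNA fewer cells of a type and less RNA per cell cannot be told apart.

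The members differed widely in level. Averaged over the 8 ribodepleted libraries, Pabpc1, the cytoplasmic poly(A)-binding protein, stood at 317 scaled TPM, Lsm3 at 313 and the CCR4-NOT scaffold Cnot1 at 218, whereas the decapping cofactor Dcp1b stood at 3.08 and the deadenylase Cnot6l at 9.06. Within complexes the spread was uneven. In WT cells at 0 h the highest of the 9 CCR4-NOT subunits exceeded the lowest by 36.2-fold, the 7 Lsm genes spanned 8.60-fold, and the 8 genes of the exosome ring (Exosc1 to Exosc9, without Exosc6) spanned 2.79-fold. In the exosome the highest was Exosc5 at 144 and the lowest Exosc1 at 45.9 scaled TPM. The 5′ exonucleases also stood apart, with the nuclear enzyme Xrn2 at 177 and the cytoplasmic enzyme Xrn1 at 22.0. Among decapping factors the scaffold Edc4 was highest at 88.3, in the Lsm ring Lsm1 was lowest at 40.7, among deadenylation factors outside CCR4-NOT Pan3 was lowest at 31.5, and nonsense-mediated decay ran from Upf1 at 119 to Upf2 at 21.6.

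In untreated TKO cells the exosome and part of the Lsm ring and CCR4-NOT were lower than in WT, whereas the deadenylases Cnot6l, Cnot8 and Cnot7 and the endonuclease Smg6 were higher. Of the 43 members 6 were higher and 17 lower at 0 h, beside 27.8% and 28.2% of all genes tested. After 4 h of α-amanitin 4 were higher and 24 lower in TKO than in WT, beside 29.1% and 30.3% of all genes. The median change of the members was -0.10 at 0 h and -0.19 at 4 h, beside -0.019 and -0.0051 over all genes. Only Cnot6l was higher by more than 1.5-fold at 0 h, beside 10.5% of all genes, and only Lsm3 was lower by that much, beside 5.43%. At 4 h Cnot6l and Cnot8 were higher and Lsm3 and Exosc3 lower beyond 1.5-fold, beside 11% and 5.82% of all genes. The 0 h and 4 h comparisons use different libraries, and all 17 members that were lower at 0 h were lower at 4 h as well, as were 4 of the 6 that were higher. A further 7 passed as lower at 4 h only (Pabpc1, Dcp1b, Lsm2, Lsm4, Lsm7, Exosc2 and Exosc10), and 13 members passed at neither time.

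These counts depend on the scaling. On the TPM as deposited 8 members were higher and 11 lower at 0 h, beside 33.3% and 17.6% of all genes, and 13 higher and 8 lower at 4 h, beside 40.2% and 16.6%. With quantile normalisation the counts were 8 and 13 at 0 h, beside 27% and 29.1% of all genes, and 8 and 16 at 4 h, beside 26.8% and 29.2%. The deposited TPM put the median of all genes at 0.14 in TKO against WT at 4 h and at -0.11 in WT at 4 h against 0 h, instead of -0.0051 and 0.028. Without TKO 0 h replicate 2 the count of lower members at 0 h was 11, beside 20.5% of all genes. The members that passed in the same direction under all 3 scalings at both times were Cnot6l, Cnot7, Cnot8 and Smg6 (higher) and Cnot1, Cnot10, Lsm3, Lsm6, Exosc3, Exosc5, Exosc7 and Dis3 (lower).

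**Figure D1:**
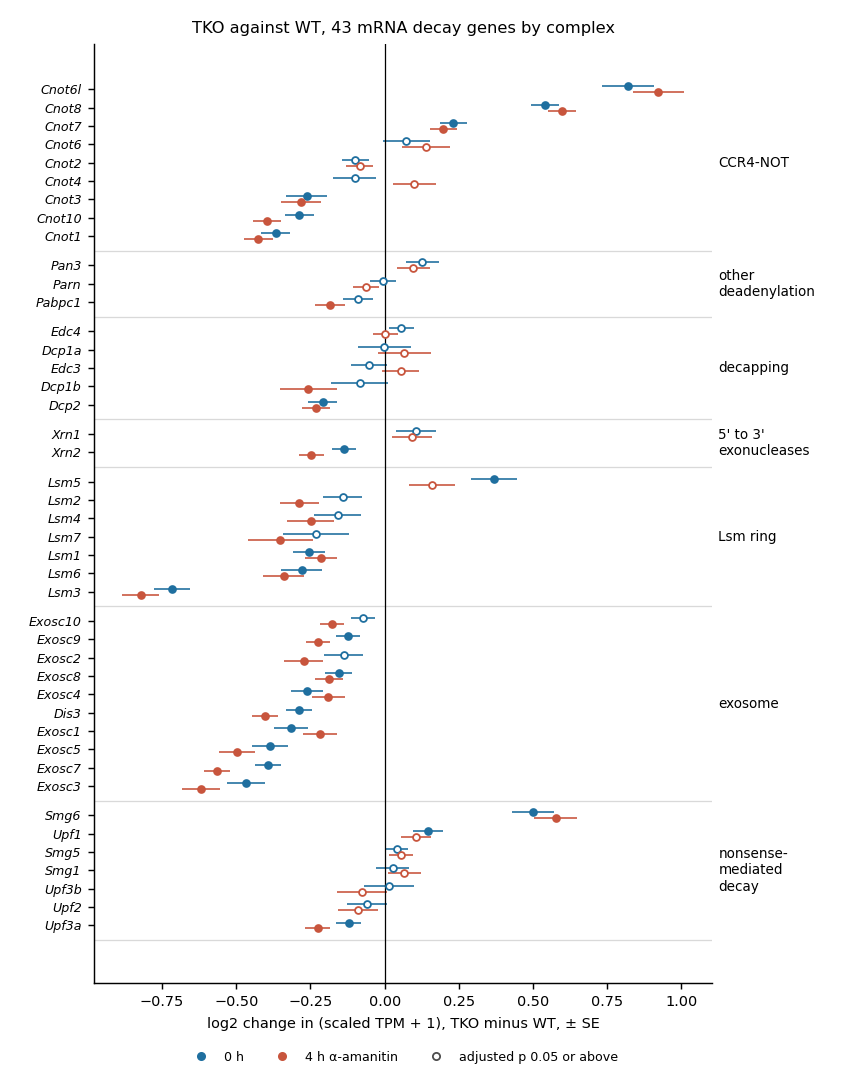
Difference between TKO and WT for each of the 43 members, grouped by complex, at 0 h (blue) and after 4 h of α-amanitin (red). The x axis is the difference of log2(scaled TPM + 1), TKO minus WT, bars are ± SE from 2 libraries per group, and filled points passed at an adjusted p under 0.05. All 10 exosome genes lie left of 0 at both times (9 at 0 h if the deposited TPM are used), whereas Cnot6l, Cnot8 and Smg6 lie between 0.50 and 0.92.

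Cnot6l encodes a Ccr4-type deadenylase that is carried by CCR4-NOT in place of its paralog Cnot6. Its scaled TPM was 6.73 and 6.37 in the WT libraries at 0 h and 11.9 and 12.8 in the TKO libraries, and at 4 h it was 5.26 and 6.12 in WT and 12.2 and 11.1 in TKO. Every TKO library was thus above every WT library, and the log2 change was 0.82 ± 0.09, adjusted p = 7.85e-05 at 0 h and 0.92 ± 0.09, adjusted p = 3.72e-05 at 4 h. The gene rests on 226 reads in its least covered library. Cnot6 itself did not pass at either time, with log2 changes of 0.07 ± 0.08 and 0.14 ± 0.08.

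Cnot7 and Cnot8 are the alternative Caf1-type deadenylases of the complex, and both were higher in TKO. Cnot8 stood at 74.0 and 77.0 scaled TPM in WT against 112 and 109 in TKO at 0 h, and at 67.8 and 71.3 against 107 and 104 at 4 h. Its log2 change was 0.54 ± 0.05, adjusted p = 2.62e-05 at 0 h and 0.60 ± 0.05, adjusted p = 1.4e-05 at 4 h, with no overlap between WT and TKO libraries at either time. Cnot7 differed less, from 70.7 ± 2.21 in WT to 83.2 ± 0.857 in TKO at 0 h (SD, n = 2; log2 change 0.23 ± 0.05, adjusted p = 0.00258), and by 0.20 ± 0.05, adjusted p = 0.00519 at 4 h. Its exons overlap an exon of Zdhhc2 on the other strand, and the strand setting of the counting is not given in the sources used here.

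The other subunits of the complex were lower or did not pass. Cnot1, the scaffold on which the complex is built, stood at 245 and 229.6 scaled TPM in WT against 182 and 185 in TKO at 0 h, a log2 change of -0.37 ± 0.05, adjusted p = 0.00026, and at 4 h the change was -0.43 ± 0.05, adjusted p = 9.88e-05. Cnot10 changed by -0.29 ± 0.05 and -0.40 ± 0.05 on the log2 scale (signed values at 0 h and 4 h), and Cnot3 by -0.26 ± 0.07 and -0.28 ± 0.07. Cnot2 and the ubiquitin ligase Cnot4 did not pass. In counts, 3 of 9 CCR4-NOT genes were higher and 3 lower at each time. Of all genes 27.8% were higher and 28.2% lower at 0 h, and 29.1% and 30.3% at 4 h, so these counts lie near the share of all genes. The summed level of the 9 was 665 ± 19.1 scaled TPM in WT and 637 ± 4.69 in TKO at 0 h (SD, n = 2).

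**Figure D2:**
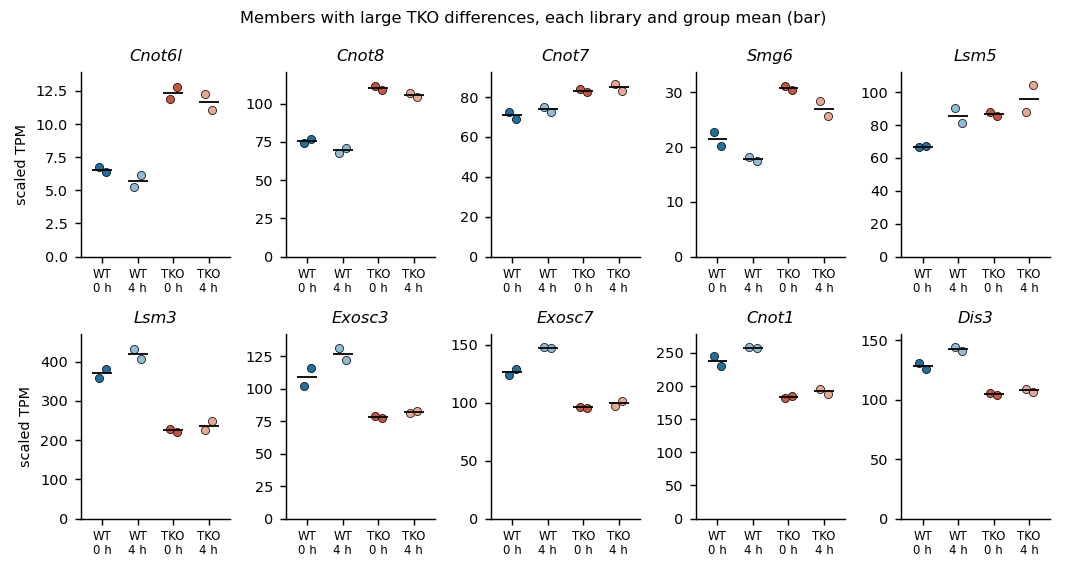
Scaled TPM of 10 members in each of the 8 ribodepleted libraries, drawn from 0 on the y axis, with the mean of each group of 2 as a bar. Cnot6l, Cnot8, Cnot7 and Smg6 are higher in every TKO library than in any WT library, and Lsm3, Exosc3, Exosc7, Cnot1 and Dis3 are lower in every TKO library than in any WT library. For Lsm5 the libraries separate by genotype at 0 h and overlap at 4 h.

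Ratios within a library do not depend on the size factors, so the paralog pairs were also compared in this way. Cnot6l was 0.138 and 0.146 of Cnot6 in the WT libraries at 0 h and 0.243 and 0.267 in TKO, and at 4 h 0.132 and 0.160 in WT and 0.262 and 0.279 in TKO. Cnot6 was the more abundant of the pair in every library. The ratio of Cnot8 to Cnot7 was 1.02 and 1.11 in WT and 1.33 and 1.32 in TKO at 0 h, and 0.903 and 0.982 against 1.24 and 1.25 at 4 h. For both deadenylase pairs no TKO library overlapped a WT library. With 2 libraries per group no test of these ratios was made. The ratio of the decapping cofactors Dcp1a and Dcp1b ranged from 7.26 to 11.1 over the ribodepleted libraries and that of the Upf1 partners Upf3a and Upf3b from 2.13 to 2.77. At 0 h the Dcp1a to Dcp1b ratio was 9.57 and 9.01 in WT and 9.61 and 10.4 in TKO. At 4 h it was 8.98 and 7.26 in WT and 11.1 and 10.4 in TKO. No TKO library overlapped a WT library for this pair either, so the separation was not particular to the deadenylases. The Upf3a to Upf3b ratio was 2.30 and 2.53 in WT and 2.27 and 2.13 in TKO at 0 h, also without overlap. At 4 h it was 2.62 and 2.77 in WT and 2.24 and 2.64 in TKO, which overlapped. How often other pairs of genes separate in this way was not counted.

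**Figure D3:**
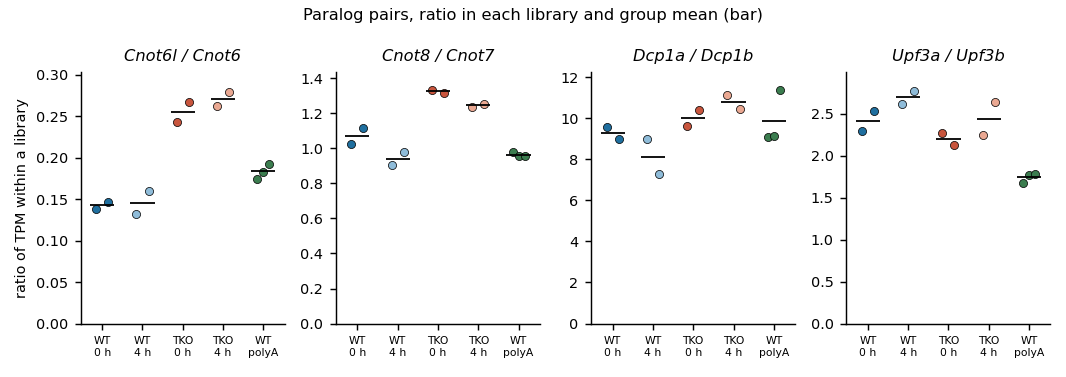
Ratio of the TPM of 4 paralog pairs within each library (points) and the mean of each group (bar), with the y axis from 0. The Cnot6l to Cnot6 ratio lies between 0.243 and 0.279 in TKO libraries and between 0.132 and 0.160 in the ribodepleted WT libraries.

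With size factors, of the 8 deadenylation and decapping factors outside CCR4-NOT, 1 passed as lower at 0 h (Dcp2) and 3 at 4 h (Dcp2, Dcp1b and Pabpc1). None passed as higher. Of all genes 28.2% were lower and 27.8% higher at 0 h, and 30.3% and 29.1% at 4 h. On the deposited TPM none of the 8 passed as lower, beside 17.6% and 16.6% of all genes. There 1 of the 3 deadenylation and poly(A)-binding factors passed as higher at each time. Of the 5 decapping factors 1 passed as higher at 0 h and 2 at 4 h, beside 33.3% and 40.2% of all genes. The nuclease Parn had a log2 change of -0.0040 ± 0.04 at 0 h and -0.06 ± 0.04 at 4 h, neither passing, and Pan3 did not pass either. Dcp2, the decapping enzyme, stood at 58.2 and 54.4 scaled TPM in WT against 48.2 and 48.9 in TKO at 0 h, and was lower at both times (-0.21 ± 0.05, adjusted p = 0.00576 and -0.23 ± 0.05, adjusted p = 0.00316). Its cofactor Dcp1b passed at 4 h (-0.26 ± 0.10, adjusted p = 0.0459), and its activators Edc3 and Edc4 passed at neither time. Of the 5′ exonucleases, Xrn2 was lower (-0.14 ± 0.04, adjusted p = 0.0196 at 0 h and -0.25 ± 0.04, adjusted p = 0.000874 at 4 h), whereas Xrn1 had values of 0.11 ± 0.07 and 0.09 ± 0.07 that did not pass. Pabpc1 passed as lower at 4 h (-0.18 ± 0.05, adjusted p = 0.0117), but quantile normalisation turned this value to 0.0554.

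The largest deficit of any member was in Lsm3, a small protein of the Lsm ring that is shared between the cytoplasmic decapping ring and the nuclear U6 snRNA ring. It stood at 358 and 381 scaled TPM in WT against 229 and 219.7 in TKO at 0 h, and at 433 and 406 in WT against 226 and 248 in TKO at 4 h. The libraries did not overlap, and the level was 1.64-fold lower at 0 h (-0.72 ± 0.06, adjusted p = 2.45e-05) and 1.77-fold lower at 4 h (-0.82 ± 0.06, adjusted p = 1.07e-05). Lsm1, the subunit that is specific to the decapping ring, was lower by a smaller margin (-0.25 ± 0.05, adjusted p = 0.00409 and -0.21 ± 0.05, adjusted p = 0.009), and so was Lsm6 (-0.28 ± 0.07, adjusted p = 0.00853 and -0.34 ± 0.07, adjusted p = 0.00286). Lsm5 went the other way: it stood at 66.5 and 67.2 in WT against 87.9 and 85.3 in TKO at 0 h (0.37 ± 0.08, adjusted p = 0.00387), and at 4 h its libraries overlapped (0.16 ± 0.08, adjusted p = 0.111). In all, 3 of 7 Lsm genes were lower and 1 higher at 0 h, beside 28.2% and 27.8% of all genes. At 4 h 6 were lower, beside 30.3% of all genes. The median changes were -0.23 and -0.29 beside -0.019 and -0.0051 for all genes. On the deposited TPM 3 of the 7 were lower and 1 higher at 0 h, beside 17.6% and 33.3% of all genes. At 4 h 2 were lower and 1 higher on that scaling, beside 16.6% and 40.2%. The ring takes up its 7 proteins in equal numbers, and the ratio of the highest to the lowest transcript was 8.60 in WT and 6.37 in TKO at 0 h.

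Cnot6l and Lsm3, the members that passed 1.5-fold in opposite directions at both times, are shown with the region around their transcription start (250 bases before to 50 after, from RefSeq on GRCm38.p6, 5′ to 3′ on the gene's strand), with every CG dinucleotide in capitals, since CG is the site at which Tet enzymes act on methylated DNA. The Cnot6l region (chr5:96161941-96162240, minus strand) held 49 CG, a number reached by 1% of all 27025 genes at their 5′-most start, and the Lsm3 region (chr6:91515785-91516084, plus strand) held 32, reached by 9.27%.
Cnot6l: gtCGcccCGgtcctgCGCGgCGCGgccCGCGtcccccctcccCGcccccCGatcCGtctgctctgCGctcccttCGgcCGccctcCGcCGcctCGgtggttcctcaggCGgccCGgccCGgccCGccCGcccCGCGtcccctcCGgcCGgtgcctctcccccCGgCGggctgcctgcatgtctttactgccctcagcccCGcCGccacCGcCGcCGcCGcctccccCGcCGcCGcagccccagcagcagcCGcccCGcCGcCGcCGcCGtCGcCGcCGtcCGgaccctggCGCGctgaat
Lsm3: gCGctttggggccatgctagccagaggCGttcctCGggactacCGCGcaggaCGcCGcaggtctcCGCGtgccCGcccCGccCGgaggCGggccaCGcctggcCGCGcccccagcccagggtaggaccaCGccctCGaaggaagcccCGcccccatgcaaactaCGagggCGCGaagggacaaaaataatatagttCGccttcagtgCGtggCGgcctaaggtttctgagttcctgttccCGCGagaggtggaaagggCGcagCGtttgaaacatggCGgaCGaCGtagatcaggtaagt
Start regions were matched for 35 of the 43 members. At the 5′-most start of each gene they held a median of 25 CG (3 to 49), beside 7 over all genes. None contained the letters TATAAA on either strand, beside 14.2% of all genes. All genes are here the 27025 with an annotated start, expressed in these cells or not. The lowest was Cnot8, with 3 CG at its 5′-most start, a number reached by 76.1% of all genes, and with 30 CG at the richest of its 4 annotated starts. With the CG-richest start of each gene the members' median was 26 (8 to 49), beside 8 over all genes. Which start was used in these cells, and DNA methylation, were not measured here. A relation between the number of CG and the difference between TKO and WT was not tested.

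The exosome genes differed in 1 direction. All 10 genes had a lower level in TKO at both times (9 of 10 at 0 h on the deposited TPM). As lower 8 of 10 passed at 0 h and 10 of 10 at 4 h, beside 28.2% and 30.3% of all genes. The median change was -0.27 and -0.25 beside -0.019 and -0.0051 for all genes. The summed level of the 10 was 1014 ± 27.2 scaled TPM in WT and 841 ± 11.1 in TKO at 0 h, and 1143 ± 25.0 against 885 ± 16.4 at 4 h (SD, n = 2). On the deposited TPM 6 passed as lower at 0 h and 4 at 4 h, beside 17.6% and 16.6% of all genes. With quantile normalisation the counts were 6 and 6, beside 29.1% and 29.2%, and none passed as higher. Relative to the median of all genes, the exosome median differed by -0.26, -0.25 and -0.19 at 0 h and by -0.24, -0.23 and -0.13 at 4 h under size factors, deposited TPM and quantile normalisation.

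Exosc3, a cap subunit that contacts incoming RNA, stood at 102 and 116 scaled TPM in WT against 79.3 and 77.4 in TKO at 0 h, and at 131 and 122 against 81.0 and 83.1 at 4 h. This was the largest difference in the complex (-0.47 ± 0.06, adjusted p = 0.000345 at 0 h and -0.62 ± 0.06, adjusted p = 6.23e-05 at 4 h). The ring subunits Exosc7 and Exosc5 followed, with -0.39 ± 0.04, adjusted p = 0.000104 and -0.39 ± 0.06, adjusted p = 0.000707 at 0 h and with -0.56 ± 0.04 and -0.50 ± 0.06 at 4 h. The WT and TKO libraries of both did not overlap: Exosc7 stood at 124 and 129 in WT against 96.7 and 95.3 in TKO, and Exosc5 at 148 and 152 against 114 and 115.

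Dis3, which carries the exonuclease and endonuclease activities of the complex, stood at 131 and 126 in WT against 106 and 104 in TKO at 0 h, and was lower at both times (-0.29 ± 0.04, adjusted p = 0.000544 and -0.40 ± 0.04, adjusted p = 7.29e-05). Exosc10, its nuclear partner, passed at 4 h (-0.18 ± 0.04, adjusted p = 0.00487) but not at 0 h (-0.07 ± 0.04). Exons of Exosc3, Exosc4, Exosc8, Exosc9 and Dis3 overlap a protein-coding gene on the other strand, as is the case for 10 of the 43 members, and the part of those genes in the values was not tested. Exosc6, the remaining ring subunit and not among the 43, had log2 changes of -0.16 and -0.07 that did not pass.

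Smg6, the endonuclease, was the member of nonsense-mediated decay with the largest difference. It stood at 22.7 and 20.2 scaled TPM in WT against 31.1 and 30.4 in TKO at 0 h, and at 18.1 and 17.4 against 28.4 and 25.6 at 4 h, without overlap. The log2 change was 0.50 ± 0.07, adjusted p = 0.000451 and 0.58 ± 0.07, adjusted p = 0.000174. The helicase Upf1 passed as higher at 0 h and not at 4 h (0.14 ± 0.05, adjusted p = 0.0356, against 0.11 ± 0.05, adjusted p = 0.0989 at 4 h), and Upf3a was lower at both times (-0.12 ± 0.04, adjusted p = 0.0353 and -0.23 ± 0.04, adjusted p = 0.00169). The kinase Smg1 stood at 39.2 and 37.0 in WT against 38.3 and 39.3 in TKO, overlapping, and Upf2, Upf3b and Smg5 did not pass. The call for Upf3a at 0 h was lost under 10 of 17 alternatives, whereas those for Smg6 held in all 17 at both times. With size factors 2 of the 7 were higher and 1 lower at 0 h, beside 27.8% and 28.2% of all genes. At 4 h 1 was higher and 1 lower, beside 29.1% and 30.3%. On the deposited TPM none was lower at either time, beside 17.6% and 16.6% of all genes. There 2 were higher at 0 h and 4 at 4 h, beside 33.3% and 40.2%.

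Other genes of the same routes were taken from a list of 62 symbols, of which 59 were found and 58 tested. At 0 h 12 were higher and 17 lower in TKO, and at 4 h 12 and 22. That is 20.7% higher at each time, beside 27.8% and 29.1% of all genes. As lower it is 29.3% and 37.9%, beside the 28.2% and 30.3% of all genes. The counts by list stand beside the same shares of all genes. By list, 2 of 12 deadenylation genes were higher and 2 lower at 0 h, and 2 and 3 at 4 h. Of 9 decapping genes 2 were higher and 5 lower at 0 h, and 2 and 4 at 4 h. Of the 18 exosome cofactors 3 were higher and 4 lower at 0 h, and 2 and 9 at 4 h. Of 13 genes of nonsense-mediated decay and the exon junction 4 were higher and 5 lower at both times, and of 6 genes of small-RNA silencing 1 was higher and 1 lower at 0 h, and 2 and 1 at 4 h. Examples, picked after their values were seen, are Btg2, an adaptor that binds the Caf1 deadenylases (0.91 at 0 h, adjusted p = 8.09e-06, and 0.87 at 4 h), Zcchc11, a uridylyltransferase (0.82 and 0.83), Rnps1, a peripheral factor of the exon junction complex (0.81 and 0.69), and Pnrc2, a decapping cofactor (-0.56 and -0.52).

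After 4 h of α-amanitin in WT cells, 7 of 10 exosome genes and 4 of 7 Lsm genes rose with size factors and 2 exosome genes fell, whereas on the deposited TPM none of the 10 exosome genes rose. On the deposited TPM 2 of the 43 members rose and 11 fell, beside 3.19% and 25.2% of all genes, and with quantile normalisation 2 rose and 7 fell, beside 12% and 11.3%. With size factors, of the 43 members 16 rose and 5 fell, beside 21.9% and 15.8% of all genes, and none changed by more than 1.5-fold; the median was 0.099 beside 0.028 over all genes. The risers were 7 exosome genes (Exosc2, Exosc3, Exosc5, Exosc7, Exosc9, Exosc10 and Dis3), Lsm2 to Lsm5, Pabpc1, Parn, Cnot10, Xrn2 and Upf3a. The members that fell were Cnot4, Dcp1a, Smg6, Exosc1 and Exosc4. TPM are shares of a library, so a loss common to all transcripts cannot be seen in them.

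The largest rise was in Lsm5, from 66.5 and 67.2 scaled TPM at 0 h to 90.3 and 81.3 at 4 h (0.35 ± 0.08, adjusted p = 0.0117). Lsm4 rose from 227 and 249.9 to 308 and 294 (0.34 ± 0.08, adjusted p = 0.0141), and Exosc5 from 148 and 152 to 187 and 178 (0.28 ± 0.06, adjusted p = 0.0107). In each the 4 h libraries lay above the 0 h libraries. Of the members that fell, the E3 ligase Cnot4 went from 12.8 and 11.7 to 9.62 and 9.52 (-0.33 ± 0.07, adjusted p = 0.0113) and Dcp1a from 33.9 and 30.4 to 26.2 and 24.8 (-0.32 ± 0.09, adjusted p = 0.0238). Of the catalytic members, Xrn2, Dis3, Exosc10 and Parn rose by 0.14, 0.15, 0.17 and 0.17 (on the deposited TPM Xrn2 and Dis3 turned to -0.0146 and -0.00619), Smg6 changed by -0.26 ± 0.07, adjusted p = 0.024, and Cnot6, Cnot6l, Cnot7, Cnot8, Dcp2, Xrn1, Upf1 and Smg1 did not pass, with values from -0.23 (Cnot6) to 0.11 (Upf1).

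Under all 3 scalings Lsm5 rose and Cnot4, Dcp1a, Exosc1 and Exosc4 fell. The counts also rest on single libraries. Without WT 4 h replicate 1 no member rose or fell, beside 0.815% and 2.2% of all genes. The counts of members that rose and fell were 9 and 0 without WT 4 h replicate 2 (13.2% and 8.78% of all genes), 3 and 1 without WT 0 h replicate 1 (5.91% and 6.33%) and 10 and 4 without WT 0 h replicate 2 (13.8% and 9.66%). They were 10 and 5 without TKO 0 h replicate 1 (15.5% and 13.4%) or replicate 2 (15.4% and 13.5%), 19 and 9 without TKO 4 h replicate 1 (25.1% and 18.9%) and 19 and 8 without TKO 4 h replicate 2 (25.6% and 18.6%). The number of calls over all genes thus moved with that of the members.

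The order of the members among themselves depends less on the scaling, and it followed the length of the 3′ untranslated region (3′ UTR), taken from the GENCODE transcript with the longest coding sequence of each gene on NCBIM37 (mm9). All 16 members that rose had a 3′ UTR of 64 to 886 nucleotides (median 300.0), and all 5 that fell had 962 to 3750 (median 1065). With the transcript of the longest 3′ UTR these ranges overlapped, at 64 to 1203 and 962 to 3750. Over all genes the medians were 594.5 for those that rose and 1202 for those that fell. Of the 22 members whose 3′ UTR was shorter than 894 nucleotides, the median of all genes tested, 20 had a change above 0 and 16 passed, whereas of the 21 longer ones 5 had a change above 0, none rose and 5 fell. Among all genes 29.6% of those with the shorter and 16.7% of those with the longer 3′ UTR rose, and 10.9% and 17.5% fell.

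Across the 43 members Spearman's rho between 3′ UTR length and the change in WT was -0.67 (-0.67 on the deposited TPM and -0.59 with quantile normalisation), beside -0.23 across 11553 genes with an annotated 3′ UTR; members share the same 4 libraries and are not replicates, and the difference between these values was not tested. For coding length the members' rho was -0.40, beside -0.19 over all genes. For the length of the whole transcript it was -0.61, beside -0.28 over all genes. The part of the 3′ UTR was not separated from that of transcript length. The AU-rich pentamer ATTTA, a common motif of unstable mRNAs, occurred in the 3′ UTR of 6 of the 16 members that rose, 5 of the 5 that fell and 19 of the other 22, beside 54.7%, 75.9% and 65.1% of all genes in the same classes; longer 3′ UTRs have more room for it. The longer AU-rich element TTATTTATT (in capitals, with 10 bases on each side, taken from the GENCODE transcript on NCBIM37) was found in a single member, Edc3, on chromosome 9, from base 2068 of its 3′ UTR, and Edc3 did not pass in WT cells.
Edc3: agcttctagcTTATTTATTggcttgcctt

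**Figure D4:**
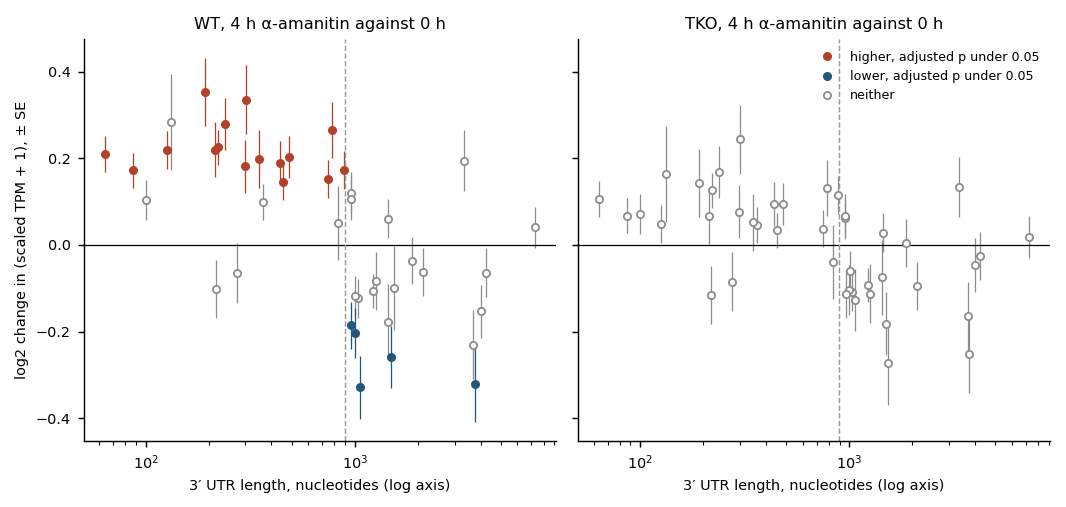
Change of each of the 43 members after 4 h of α-amanitin (y axis, difference of log2(scaled TPM + 1), ± SE, n = 2 libraries per group) against the length of its 3′ UTR (x axis, nucleotides, log scale) in WT (left) and TKO (right). Filled points passed at an adjusted p under 0.05, and the dashed line marks 894 nucleotides, the median of all genes tested. In WT every point that rose lies left of the line and every point that fell lies right of it.

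In TKO cells none of the 43 members passed in limma after α-amanitin, beside 0% higher and 0.265% lower of all genes. An unadjusted p under 0.05 was found for 10 of the 43 members, beside 3110 of the 12467 genes tested. The median of the members was 0.034 beside 0.013 over all genes. The lowest adjusted p was 0.135, for Exosc9, which went from 81.7 and 80.8 to 88.8 and 88.7 scaled TPM. The spread of the TKO libraries at 4 h was wide for some members, such as Lsm4 with 233 and 275 and Dcp1a with 29.4 and 24.3. Fitted with voom on recovered reads, Lsm4 passed as higher and Dcp1a as lower. The same fit called 1.88% of all genes higher and 4.03% lower. Without TKO 4 h replicate 1, 5 members passed as higher (Cnot10, Lsm4, Lsm5, Lsm7 and Exosc5) and 4 as lower (Cnot2, Cnot6, Dcp1a and Exosc1), beside 12.7% and 9.85% of all genes, so these counts lie near the share of all genes.

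The relation to 3′ UTR length was seen in TKO as values too, with rho of -0.58 over the members beside -0.23 over all genes. For the length of the whole transcript these values were -0.55 and -0.31, and for coding length -0.42 and -0.25. Of the 22 members with the shorter 3′ UTR 19 had a change above 0 in TKO (median 0.07), and of the 21 with the longer one 6 did (median -0.09); in WT the medians were 0.19 and -0.11. The difference between the WT and TKO responses was tested directly as the interaction. No member passed, beside 0% higher and 0% lower of all genes, and voom gave no call either. In limma 1 member had an unadjusted p under 0.05 (Exosc7, -0.17 ± 0.06, adjusted p = 0.662), beside 938 of the 12467 genes tested. As a description across genes, rho between 3′ UTR length and the interaction (the TKO response minus the WT response) was 0.63 over the 43 members and 0.14 over all genes. The interaction holds the WT response with a minus sign, so this rho is not independent of the -0.67 in WT. It was not tested. Against the mean of the 0 h libraries, the medians of members with shorter and longer 3′ UTR were 0.22 and -0.13 in WT 4 h library 1. They were 0.17 and -0.08 in WT library 2, 0.05 and -0.04 in TKO library 1, and 0.11 and -0.11 in TKO library 2.

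The RNA that a library selects went with larger differences in some members than genotype or drug did. In WT ESCs at 0 h, 17 of the 43 members were higher and 19 lower in polyA than in ribodepleted libraries, beside 40.1% and 40.8% of 12481 genes tested, and 9 were higher and 2 lower by more than 1.5-fold, beside 18.7% and 16.4%. On the deposited TPM the counts were 22 and 12, beside 45.9% and 33.7% of all genes, and with quantile normalisation 20 and 16, beside 42.9% and 38.2%. The polyA libraries were also a separate sequencing experiment, so RNA selection and experiment cannot be told apart.

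Pabpc1 stood at 1501, 1501 and 1513 scaled TPM in the 3 polyA libraries and at 339 and 317 in the 2 ribodepleted ones, a 4.58-fold difference (2.20 ± 0.04, adjusted p = 1.56e-09). Lsm5 stood at 284, 260.3 and 277 against 70.3 and 70.9 (1.94 ± 0.04, adjusted p = 3.47e-09), and Lsm7 at 291, 302 and 302 against 95.1 and 107 (1.55 ± 0.05, adjusted p = 3.07e-08). For these members the 2 kinds of library did not come near each other. Their annotated transcripts are short for Lsm5 and Lsm7, at 499 and 468 nucleotides, whereas that of Pabpc1 has 2817. Lsm3, with 631 nucleotides, was lower in polyA libraries (-0.26 ± 0.05). The relation to transcript length over all members is given below as rho. Cnot3 stood at 97.1, 100.0 and 96.2 against 29.3 and 28.8 (1.72 ± 0.04, adjusted p = 2.6e-09), and its exons overlap Leng1 on the other strand. Pabpc1 and several Lsm genes have processed pseudogenes, and how reads that match several places were counted is not given in the sources used here, so their levels are less certain.

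On the other side, Pan3 stood at 18.4, 18.5 and 18.9 in polyA and 33.9 and 31.3 in ribodepleted libraries (-0.78 ± 0.05, adjusted p = 9.48e-07) and Cnot2 at 56.4, 54.6 and 56.1 against 93.6 and 91.6 (-0.72 ± 0.04, adjusted p = 2.88e-07). The Lsm ring was split, with Lsm2, Lsm4, Lsm5, Lsm6 and Lsm7 higher and Lsm1 and Lsm3 lower in polyA libraries. Edc3 (0.79 ± 0.04, adjusted p = 2.94e-07), Upf3b (0.75 ± 0.06, adjusted p = 3.31e-06), Lsm4 (0.69 ± 0.05, adjusted p = 1.96e-06), Lsm2 (0.68 ± 0.04, adjusted p = 1.27e-06) and Cnot6l (0.64 ± 0.06, adjusted p = 7.59e-06) were the remaining members above 1.5-fold. Both 5′ exonucleases were lower in polyA libraries, with log2 differences for Xrn2 of -0.44 and for Xrn1 of -0.33. The exosome showed no common direction, with 2 of 10 higher and 3 lower, beside 40.1% and 40.8% of all genes. Its median was -0.0052 beside -0.0075 for all genes. Across the members rho between transcript length and this difference was -0.30, beside -0.24 across 11587 genes.

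**Figure D5:**
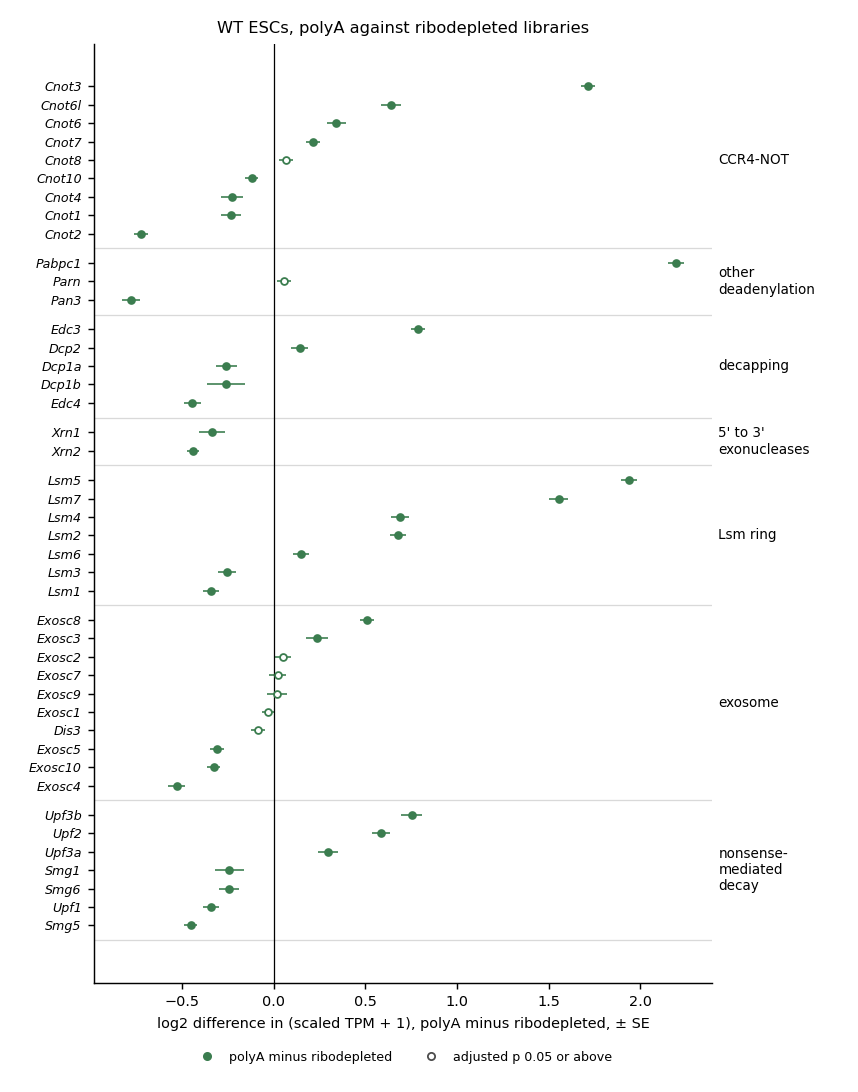
Difference between the 3 polyA and the 2 ribodepleted WT libraries at 0 h for each of the 43 members, grouped by complex. The x axis is the difference of log2(scaled TPM + 1), polyA minus ribodepleted, bars are ± SE, and filled points passed at an adjusted p under 0.05. Pabpc1, Lsm5, Cnot3 and Lsm7 lie above 1.5 and the other members between -0.78 and 0.79.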

How the data were processed

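RNA-seq of mouse ESCs was analysed in 5 groups: WT and TKO at 0 h and 4 h (2 ribodepleted libraries each) and WT polyA (3 libraries). The values deposited by the authors are TPM per gene. Per their methods and the submitters' notes, reads were checked with FastQC and AfterQC, rRNA and tRNA reads were removed with Bowtie2, adapters trimmed with Trimmomatic, reads aligned with STAR to mm9 and counted over RefSeq genes with HTSeq; versions and the strand setting are not given in the sources used here.

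Each library's TPM were divided by its size factor (median of ratios). Genes with a mean scaled TPM above 1 entered the limma fit (version 3.58.1, R 4.3.3) as log2(scaled TPM + 1) (eBayes with trend, two-sided, Benjamini-Hochberg over all genes), after the script was tested on simulated data. The ribodepleted groups shared one fit of 8 libraries, and polyA against ribodepleted WT was a separate fit of 5. The log scale understates changes of low genes. The 1.5-fold limit follows the study. Whole reads could be recovered from the TPM of all genes and gave the depth. Replicates differed by more than counting noise (chi-square over its degrees of freedom 1.53 to 10.6), so none was merged. The paper describes the α-amanitin RNA-seq of WT and TKO ESCs as done in biological duplicate. How the cultures behind the libraries of a group were kept apart is not given in the sources used here. How far the p-values measure spread between cultures is thus not known. Named members were those past 1.5-fold, the 5 largest passing changes of each ribodepleted comparison, the 6 largest polyA differences, catalytic members, paralog pairs and the highest and lowest of each complex. Members and lists were chosen with earlier results of these data known. Alternatives were other scalings (deposited TPM, quantile), pseudocounts of 0.1 and 5, no filter or a mean above 5, a replicate block, no variance trend, voom on recovered reads, and leaving out each library, where a lone library is assumed to vary like the other groups.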

Additional observations from a re-analysis of the deposited data

Results flagged for a closer look

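Cnot4, the ubiquitin ligase of CCR4-NOT, drew attention because its libraries separated in opposite directions at the 2 times. At 0 h the TKO libraries (11.4 and 11.4 scaled TPM) lay below the WT libraries (12.8 and 11.7), and at 4 h (10.9 and 9.81) above them (9.62 and 9.52). Tested as an interaction, the difference was 0.20 ± 0.10 (log2) and did not pass (limma, adjusted p = 0.686), and neither TKO against WT comparison passed for this gene.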

How the results depend on the processing

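Of 1726 values of single members under 20 alternatives, 1507 kept their direction and their side of the threshold, 214 lost the call and 5 turned: quantile normalisation gave 0.0554 for Pabpc1 in TKO against WT at 4 h and, in WT after 4 h, -0.0161 for Xrn2 and -0.00789 for Lsm3, and deposited TPM gave -0.0146 for Xrn2 and -0.00619 for Dis3. The cause was not tested. With 1.5-fold required, members higher and lower were 1 and 1 (TKO against WT at 0 h), 2 and 2 (at 4 h), 0 and 0 (WT after 4 h) and 9 and 2 (polyA). Deposited TPM gave 11 lower at 0 h, 13 higher and 8 lower at 4 h, 2 and 11 in WT after 4 h, and 12 lower in polyA; quantile normalisation gave 8 higher at 4 h and 2 in WT after 4 h. Without the filter 1 member fell in WT after 4 h, beside 6.76% of all genes. Voom gave 1 higher and 1 lower in TKO after 4 h, beside 1.88% and 4.03%.

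Leaving out each library gave 5 to 6 higher and 11 to 20 lower at 0 h, 3 to 6 and 20 to 23 at 4 h, 0 to 19 and 0 to 9 in WT after 4 h, 0 to 5 and 0 to 4 in TKO after 4 h, 0 and 0 in the interaction, and 15 to 17 and 16 to 19 in polyA.

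Same-numbered libraries did not deviate together (correlations of -0.044 to 0.12 in the ribodepleted and -0.092 to 0.097 in the polyA fit). A replicate block gave 23 members lower in TKO at 4 h, beside 30.4% of all genes. With it 15 rose and 6 fell in WT after 4 h, beside 22.3% and 15.9%. Among the values named the block lost the calls of Dcp1b (TKO at 4 h, and polyA) and Lsm3 (WT after 4 h).

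With the transcript of the longest 3′ UTR, an alternative chosen after seeing the data, the median 3′ UTR was 428.5 nucleotides for members that rose in WT and 3008 for those that fell, and the ranges (64 to 1203 and 962 to 3750) overlapped. Depth limits Dcp1b and Cnot6l most, and 2 libraries per group limit every comparison.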
